A study of Mus musculus with 25 samples.

Results

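AMP-activated protein kinase (AMPK) and its nearest partners in energy stress were examined as a set of 10 genes chosen by their function. Of these, 9 had a row among the 8829 genes of the muscle table and are described here, and Prkab1 was not analysed here. They are the catalytic subunits Prkaa1 and Prkaa2, the scaffold subunit Prkab2, the nucleotide-binding subunits Prkag1 and Prkag3, the upstream kinase gene Stk11, and the effectors Acacb, Mlycd and Ucp3. The samples were gastrocnemius muscles of male SAMP8 mice, an inbred line with accelerated senescence, with 11 mice on vehicle (control) and 14 on thymol. Thymol is a plant terpenoid, given by oral gavage at 20 mg per kg per dosing day for 3 months from an age of 8 months. The dosing days did not include every day of the week. Every mouse of both groups was SAMP8, so a line with normal aging was not part of the comparison, and each mouse gave 1 QuantSeq 3′ library, in which a transcript is counted by a tag near its 3′ end.

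AMPK is a heterotrimer of a catalytic alpha, a scaffolding beta and a regulatory gamma subunit. When ATP falls, AMP and ADP bind the gamma subunit and LKB1, the product of Stk11, phosphorylates the alpha subunit, after which the kinase shuts down energy-consuming synthesis and opens fuel oxidation. In muscle it phosphorylates and inhibits acetyl-CoA carboxylase 2, the product of Acacb, which makes malonyl-CoA, a brake on the entry of fatty acids into mitochondria. Malonyl-CoA decarboxylase, from Mlycd, removes that brake, and Ucp3 encodes a mitochondrial carrier protein of muscle whose transcript rises with fasting and fatty acid supply. Kinase activity depends on phosphorylation and nucleotide binding, neither of which was measured by these tags.

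The 25 libraries held between 4463818 and 9463418 reads with a median of 7503259, as recovered from the deposited values, and correlations between pairs of libraries ranged from 0.936 to 0.973. Control 18, thymol 20 and control 19 had the lowest median correlation with the other libraries, between 0.948 and 0.953, and results are also given without them where a call changed. All 8 muscle markers, among them Ttn and Mybpc1, were present at mean levels of 8.996 to 15.46 log2 CPM. The mean over the 10 slow-fiber markers ranged from 6.27 to 9.14 log2 CPM in control mice and from 3.19 to 9.43 in thymol mice, and in bulk muscle fewer cells of a type and less RNA per cell cannot be told apart. Of the 10 adipocyte markers 8 were present (mean over the list 3.41 to 7.06 log2 CPM in control and 2.34 to 7.31 in thymol mice), while Adig and Lep were not analysed here. Of the 10 leukocyte markers 8 were present (3.57 to 5.75 and 3.59 to 5.34 log2 CPM), while Ptprc and Adgre1 were not analysed here.

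The promoters of Prkab2, Prkaa1, Mlycd and Ucp3 are shown first. Prkab2 with Prkaa1 and with Mlycd, and Ucp3 with the pathway gene Pdk4, are among the pairs described further on. Prkag1, Prkag3 and Acacb also have such pairs, and their promoters are not printed. Each window runs from 250 bases before to 50 bases after the start of the gene in RefSeq (GRCm38.p6), is printed on the strand of the gene, and has in capitals every match, on either strand, to GGGCGG (GC box, bound by Sp1), CAGCTG (an E-box of myogenic factors) or AGGTCA (the hexamer recognized by nuclear receptors such as PPARs). The longer motifs TCAAGGTCA (estrogen-related receptors) and TATTTATA (MEF2) had no match in the windows of the 9 genes. Prkab2 lies at chr3:97657962-97658261 on the plus strand, Prkaa1 at chr15:5143611-5143910 on the plus strand, Mlycd at chr8:119394644-119394943 on the plus strand and Ucp3 at chr7:100472741-100473040 on the plus strand.
Prkab2: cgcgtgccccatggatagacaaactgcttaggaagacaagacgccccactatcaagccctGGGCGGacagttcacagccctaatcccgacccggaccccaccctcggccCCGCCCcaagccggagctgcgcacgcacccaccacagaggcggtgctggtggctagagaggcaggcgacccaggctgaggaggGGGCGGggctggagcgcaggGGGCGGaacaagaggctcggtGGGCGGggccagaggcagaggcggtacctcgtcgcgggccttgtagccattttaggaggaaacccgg
Prkaa1: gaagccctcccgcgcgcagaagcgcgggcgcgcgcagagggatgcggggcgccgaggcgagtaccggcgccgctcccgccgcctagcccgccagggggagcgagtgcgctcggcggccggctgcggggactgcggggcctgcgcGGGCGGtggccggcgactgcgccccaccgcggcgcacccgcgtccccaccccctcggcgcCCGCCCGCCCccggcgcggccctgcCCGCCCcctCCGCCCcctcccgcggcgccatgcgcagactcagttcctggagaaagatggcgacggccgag
Mlycd: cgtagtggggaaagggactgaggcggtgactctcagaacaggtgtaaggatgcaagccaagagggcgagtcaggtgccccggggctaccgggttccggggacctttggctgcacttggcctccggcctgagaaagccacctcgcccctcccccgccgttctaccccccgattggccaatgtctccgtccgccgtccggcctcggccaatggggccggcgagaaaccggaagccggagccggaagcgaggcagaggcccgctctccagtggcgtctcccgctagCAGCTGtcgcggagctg
Ucp3: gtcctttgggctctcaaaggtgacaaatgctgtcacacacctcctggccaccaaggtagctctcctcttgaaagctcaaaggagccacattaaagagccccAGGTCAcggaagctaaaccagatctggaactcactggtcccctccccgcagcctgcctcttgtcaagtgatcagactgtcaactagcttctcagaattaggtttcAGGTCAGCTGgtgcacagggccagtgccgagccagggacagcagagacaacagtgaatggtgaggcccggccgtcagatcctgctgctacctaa
The windows of Prkab2 and Prkaa1 each held 5 GC boxes, and 35.7% of 32851 promoter windows of the same length held at least 1. The Prkab2 window was 68% G and C with 23 CG dinucleotides, and the Prkaa1 window was 82% with 52, against a median of 52.7% and 7 over all windows. Mlycd, at 68%, had no GC box and carried CAGCTG at position 33 relative to the start, and 16.3% of all windows held that motif. Ucp3, at 55.0%, carried AGGTCA at positions -149 and -44, the second overlapping a CAGCTG, and AGGTCA occurred in 16.3% of windows. Among the other members, GC boxes were found in Prkaa2, Prkag1 and Stk11, a CAGCTG in Prkag3 and a reverse AGGTCA in Acacb. These are letter matches and were not tested for binding.

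The catalytic subunits differed widely in level. Prkaa2, which encodes alpha2, the main catalytic subunit of adult skeletal muscle, had 6.24, 6.62 and 6.94 log2 CPM as the lowest, median and highest control mouse and 6.21, 6.58 and 6.80 in thymol mice. Prkaa1, which encodes alpha1, the more widespread form, had 1.95, 3.04 and 3.55 log2 CPM in control mice and 2.19, 2.86 and 3.42 in thymol mice. The ranges of the 2 genes did not overlap, whereas the control and thymol mice overlapped for each gene. Because each transcript gives a single tag, read counts of the 2 genes can be set side by side without a length correction, although tag yield also depends on the 3′ end. Prkaa2 was 12.8-fold above Prkaa1 as a geometric mean over the mice, from 6.55-fold in control 14 to 26.7-fold in control 27. In control 14, 588 of 676 alpha reads came from Prkaa2, a share of 87.0% (exact Clopper-Pearson 95% interval 84.2% to 89.4%), and in control 27 it was 538 of 557 reads, 96.6% (94.7% to 97.9%); the intervals cover counting error only. With 19 to 88 reads per mouse, Prkaa1 was the sparsest member, and counting error made up 21.5% of its variance between mice of a group.

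**Figure D1:**
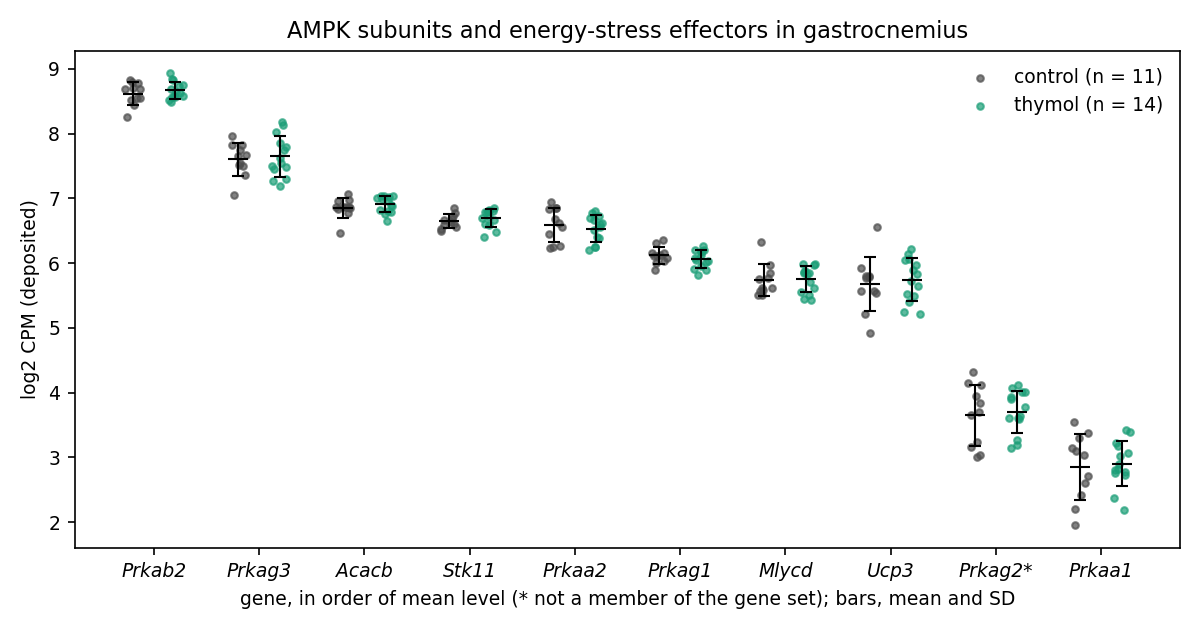
Deposited log2 CPM (vertical axis) of the 9 genes and of Prkag2 in each control mouse (gray, n = 11) and thymol mouse (green, n = 14), ordered by mean level, with bars for the mean and SD of a group. Prkab2 is highest at 8.62 and 8.67 log2 CPM in control and thymol mice, Prkaa1 lowest at 2.85 and 2.91, and the 2 groups overlap for every gene.

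Prkab2, which encodes the beta2 scaffold that holds the alpha and gamma subunits together and binds glycogen, was the highest member, at 8.62 ± 0.17 log2 CPM in control mice (SD, n = 11) and 8.67 ± 0.13 in thymol mice (SD, n = 14). It ranked 157 of the 8829 genes by mean level. Control values ran from 8.26 through a median of 8.69 to 8.83, and thymol values from 8.48 through 8.64 to 8.93, with 2 thymol mice above the control range. The beta1 gene was not analysed here, so a beta ratio was not computed.

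Among the gamma subunits Prkag3 was the highest. It encodes gamma3, known for its restriction to glycolytic skeletal muscle, and gave 7.05, 7.65 and 7.96 log2 CPM as the lowest, median and highest control and 7.20, 7.58 and 8.19 in thymol mice. Prkag1, which encodes the widespread gamma1, gave 5.89, 6.11 and 6.36 in control and 5.82, 6.06 and 6.27 in thymol mice. Prkag2, which is not a member of the set and encodes gamma2, was far lower at 3.65 ± 0.47 (SD, n = 11) and 3.71 ± 0.33 (SD, n = 14) log2 CPM. As medians over mice, Prkag3 supplied 70.1% of gamma reads in control and 71.2% in thymol mice, Prkag1 25.05% and 23.1%, and Prkag2 4.35% and 4.62%. Counting error made up 1.74% of the variance of Prkag3 between mice of a group, compared with 22.8% for Prkag1.

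The remaining genes fell between these. Acacb was at 6.86 ± 0.15 log2 CPM in control and 6.91 ± 0.12 in thymol mice, and Stk11 at 6.65 ± 0.11 and 6.70 ± 0.14 (SD, n = 11 and 14). Mlycd was at 5.74 ± 0.25 and 5.75 ± 0.20, and Ucp3 at 5.68 ± 0.41 and 5.75 ± 0.33, the widest spread after Prkaa1. Ucp3 ranged from 4.92 through a median of 5.77 to 6.56 log2 CPM in control mice and from 5.21 through 5.78 to 6.22 in thymol mice, a span of 3.12-fold in CPM between its lowest and highest mouse. Ordered by mean level, the 9 genes ran Prkab2, Prkag3, Acacb, Stk11, Prkaa2, Prkag1, Mlycd, Ucp3 and Prkaa1. Neighbors did not separate for Mlycd and Ucp3, where Mlycd was higher in 12 of 25 mice, or for Stk11 and Prkaa2, where Stk11 was higher in 15 of 25. Acacb exceeded Stk11 in 22 of 25 mice, Prkaa2 exceeded Prkag1 in 23 and Prkag1 exceeded Mlycd in 20.

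The question of the design was whether thymol changed these transcripts. None of the 9 genes changed in level with thymol under the test used, limma with Benjamini-Hochberg adjustment over all 8829 genes. All 9 adjusted p-values were 0.9999 and the unadjusted ones lay between 0.356 for Stk11 and 0.857 for Mlycd. Among all genes, 0 were called, which is 0% of those tested, while 312 genes or 3.53% had an unadjusted p under 0.05, among them 0 of the 9 members. Voom on the recovered reads likewise called 0 genes. Log2 fold changes of the members ran from -0.06 for Prkaa2 to 0.07 for Ucp3. Of them 7 were higher and 2 lower in thymol mice, with a median of 0.05, against 0.00 for all genes. Of all genes 49.6% were higher, and whether the direction count of the members differs from that share was not tested. The median absolute log2 fold change was 0.052 for the members and 0.068 for all genes.

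**Figure D2:**
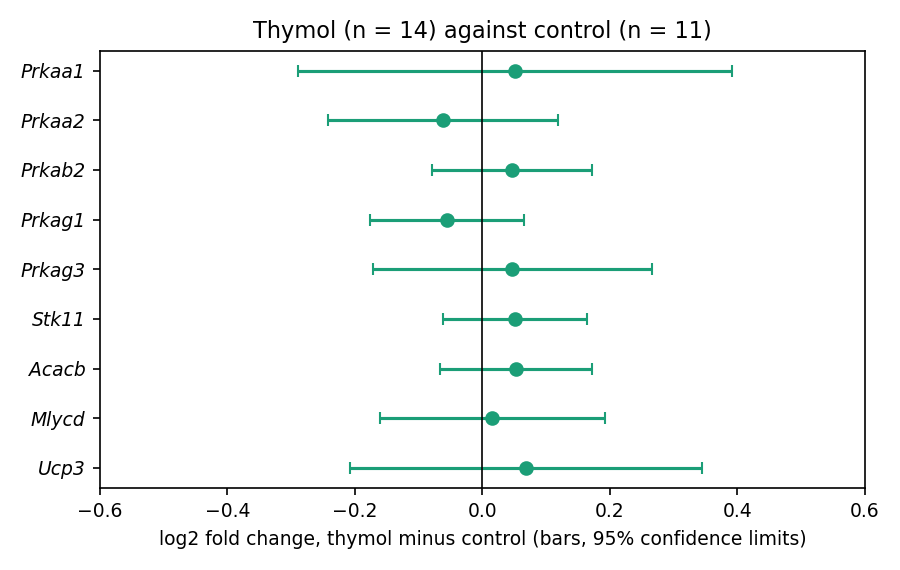
Log2 fold change (thymol minus control, horizontal axis) of the 9 genes with 95% confidence limits from limma. All 9 intervals include 0, and the widest runs from -0.29 to 0.39 for Prkaa1.

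The confidence limits give the sizes that these mice leave possible. For Stk11 the log2 fold change was 0.05 with 95% limits of -0.06 and 0.16, so a rise of more than 1.12-fold or a fall below 0.959-fold lay outside them. For Prkab2 it was 0.05 (-0.08 to 0.17), for Acacb 0.05 (-0.07 to 0.17) and for Prkag1 -0.05 (-0.18 to 0.07). Prkaa2 gave -0.06 (-0.24 to 0.12) and Mlycd 0.02 (-0.16 to 0.19). The limits were wider for Prkag3 at 0.05 (-0.17 to 0.27), Ucp3 at 0.07 (-0.21 to 0.34) and Prkaa1 at 0.05 (-0.29 to 0.39). For Prkag3, 3 thymol mice were above the control range and none below, and for Mlycd and Stk11 2 thymol mice each were below it.

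Balance between isoforms and opposing enzymes was compared within each mouse, where library scaling cancels. Prkaa2 over Prkaa1 had a log2 ratio of 3.74 ± 0.63 in control and 3.63 ± 0.35 in thymol mice (SD, n = 11 and 14). Prkag3 over Prkag1 was 1.48 ± 0.33 and 1.59 ± 0.41, and Acacb over Mlycd, the enzyme that makes malonyl-CoA over the enzyme that removes it, was 1.12 ± 0.23 and 1.16 ± 0.16. The differences, thymol minus control, were -0.11 ± 0.21, 0.10 ± 0.15 and 0.04 ± 0.08 (SE), with an adjusted p of 0.637 for each of the 3 in a two-sided permutation test.

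**Figure D3:**
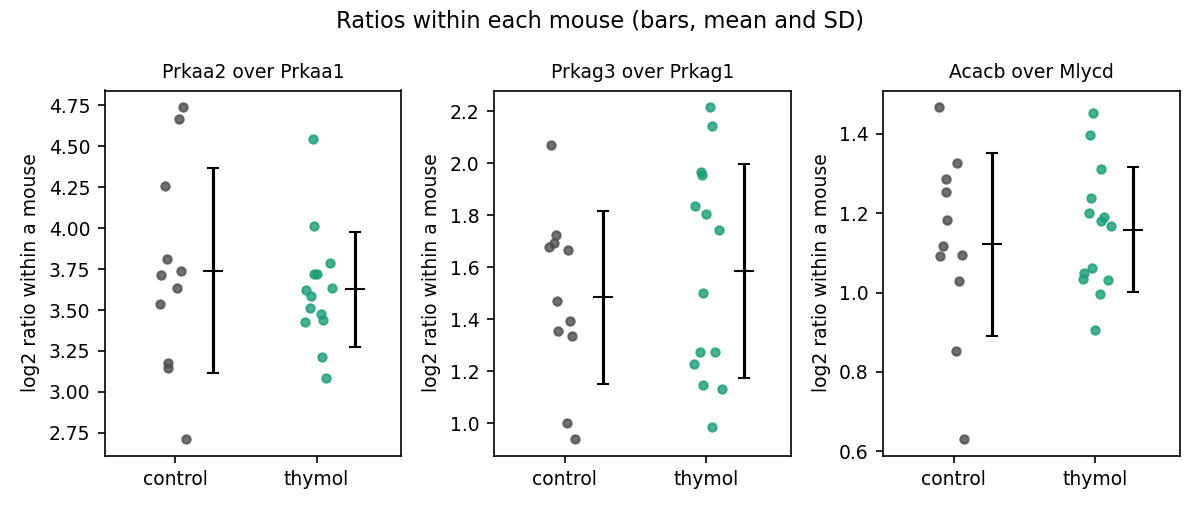
Log2 ratio within a mouse (vertical axis) for Prkaa2 over Prkaa1, Prkag3 over Prkag1 and Acacb over Mlycd, in control (gray, n = 11) and thymol mice (green, n = 14), with bars for the mean and SD. The groups overlap in all 3 panels, and control 14 has the lowest value of each ratio, 2.71, 0.94 and 0.63.

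The wider pathway was followed through 81 further genes in 10 lists. None was called after adjustment over all genes; 3 had an unadjusted p under 0.05, which is 3.70% beside the 3.53% of the table, and 41 were higher and 40 lower in thymol mice. Of 11 genes in the list of growth, autophagy and mitochondrial substrates, Tsc2, a brake on mTORC1, gave 3.08, 3.802 and 4.29 log2 CPM as the lowest, median and highest control and 3.61, 3.95 and 4.36 with thymol. Its log2 fold change was 0.27 (limma, p = 0.0343, adjusted p = 0.9999). Fnip1, a partner of folliculin, gave 0.17 (limma, p = 0.0407, adjusted p = 0.9999). Of 13 listed genes that act in transcription, 10 were lower. The CREB coactivator gene Crtc2 gave -0.30 (limma, p = 0.036, adjusted p = 0.9999), with 2 of 14 thymol mice above the control median. The muscle transcription factor gene Mef2d had 0 of 14 thymol mice above the control median at a log2 fold change of -0.08 (limma, p = 0.109). Its thymol values (7.04 to 7.24 log2 CPM) all lay within the control range (7.04 to 7.41). Mark4, an LKB1-dependent kinase, gave 0.20 (p = 0.0691) and the autophagy kinase gene Ulk1 gave -0.12 (p = 0.116), both from limma with an adjusted p of 0.9999. Of 12 PPAR target genes that respond to fasting, 11 were higher, with a median log2 fold change of 0.04 and none at an unadjusted p under 0.05. Over all genes 49.6% were higher in thymol mice, and whether the direction counts of these lists differ from that share was not tested.

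Levels of the members were next compared between mice, irrespective of treatment. Of 36 pairs of members, 4 had a Pearson r of at least 0.5 in size, compared with 2.01% of all pairs of genes in the table. After adjustment over the 36 pairs, 2 passed a permutation test, and Prkab2 was in both. Prkab2 was lower where Prkaa1 was higher (r = -0.66, permutation p = 0.00035, adjusted p = 0.0121; rho = -0.58, permutation p = 0.00284, adjusted p = 0.0341). The r was -0.83 within control mice, -0.46 within thymol mice and -0.56 without control 23 and thymol 26, the 2 mice farthest from the median of Prkaa1. Prkab2 was also lower where Mlycd was higher (r = -0.63, permutation p = 0.00067, adjusted p = 0.0121; rho = -0.53, permutation p = 0.00692, adjusted p = 0.0577). Here r was -0.52 within control mice, -0.78 within thymol mice and -0.43 without control 14 and thymol 26.

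Both calls were lost without control 14. That mouse had the highest Prkaa1 (3.55 log2 CPM, 88 reads) and Mlycd (6.33) and the lowest Prkab2 (8.26) and Prkag3 (7.05) of the 25 mice, and among control mice it had the highest slow-fiber (9.14), endothelial (4.87) and erythroid (6.55) means and the lowest fast-fiber mean (12.39). Without it 0 of 36 pairs passed and 6 had an unadjusted permutation p under 0.05, compared with 7 when all mice were kept. The share of all gene pairs under that cut was not computed. The r was then -0.60 for Prkab2 with Prkaa1 (adjusted p = 0.0643) and -0.47 for Prkab2 with Mlycd (adjusted p = 0.156), both by permutation. By rank, which limits the pull of a single mouse, 3 pairs passed with all mice: Prkaa1 with Prkab2, Prkag1 with Prkag3 (rho = -0.60) and Acacb with Mlycd (rho = 0.60), each at an adjusted permutation p of 0.0341. By Pearson r neither of the last 2 pairs passed, with r = -0.52 for the gamma subunits (permutation p = 0.00771, adjusted p = 0.0925), and 0.51 for the malonyl-CoA enzymes (permutation p = 0.0106, adjusted p = 0.0956). Prkag1 had r = -0.58 with log2 library depth and 0.48 with the mitochondrial share of reads. Prkag3 and Prkab2 had -0.40 and -0.38 with the mitochondrial share, Prkaa1 had 0.42 with depth and Acacb -0.46 with the library number, and the part of these in the correlations was not tested.

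**Figure D4:**
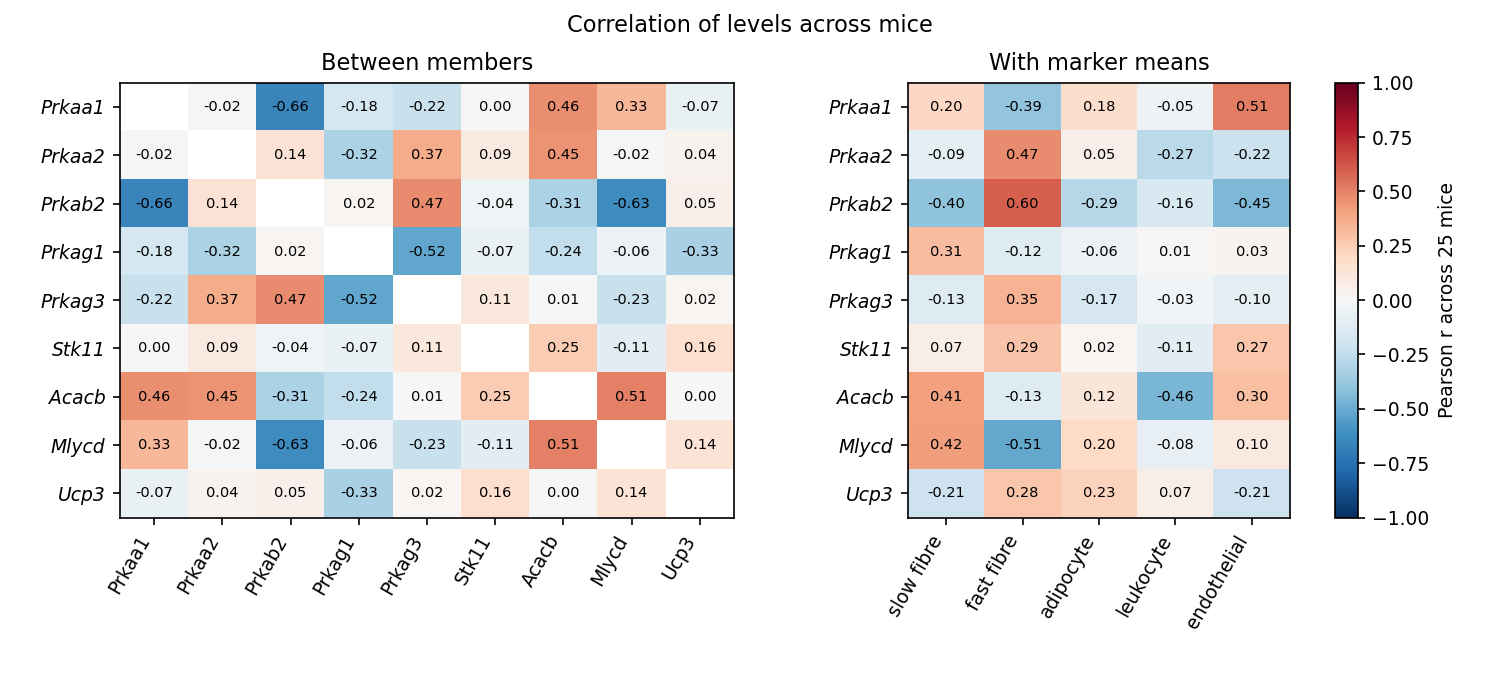
Pearson r across 25 mice between members (left) and of each member with the mean log2 CPM of 5 marker lists (right), on a color scale from -1 to 1. Prkab2 is opposed to Prkaa1 (-0.66) and Mlycd (-0.63) and runs with the fast-fiber markers (0.60), to which Mlycd is opposed (-0.51).

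Members were then compared with the marker means. Over 45 pairs of a member with a marker list, 9 had an unadjusted p under 0.05 and 0 passed after adjustment with all mice. The share of all genes under that cut with the same marker means was not computed. Prkab2 had r = 0.60 with the mean of the 12 fast-fiber markers (permutation p = 0.00149, adjusted p = 0.067; rho = 0.59) and -0.40 with the 10 slow-fiber markers. Mlycd had the opposite signs, -0.51 with fast (permutation p = 0.00869, adjusted p = 0.137) and 0.42 with slow markers. When single mice were left out, 0 pairs passed in 21 of 25 cases. In the other 4, Prkab2 with fast markers passed (r 0.59 to 0.71, adjusted permutation p 0.0054 to 0.0438). Without thymol 20, whose slow-fiber mean was the lowest at 3.19, Mlycd had r = 0.68 with slow markers (adjusted permutation p = 0.014). Prkaa1 had r = 0.51 with 7 endothelial markers (permutation p = 0.00915, adjusted p = 0.137), where Prkab2 had -0.45 (permutation p = 0.025, adjusted p = 0.187). Prkaa1 had -0.39 with fast and 0.20 with slow markers, and Prkaa2, the other catalytic subunit, had 0.47 with fast markers. The fast-fiber mean ranged only from 12.39 to 12.70 log2 CPM in control and 12.28 to 12.73 in thymol mice. With the slow-fiber and adipocyte means removed from each gene, Prkab2 and Mlycd had r = -0.49 (adjusted permutation p = 0.121). Prkab2 and Prkaa1 then had r = -0.62 (adjusted permutation p = 0.0317). Permutations after such a removal did not allow for the fitted means, so their p-values tend to be too low. Whether Prkab2 with Prkaa1 would pass with that allowance was not tested. With the fast-fiber and endothelial means removed, a setting chosen after these correlations were seen, both calls were lost, at r = -0.46 for Prkab2 with Prkaa1 (adjusted permutation p = 0.152) and -0.51 for Prkab2 with Mlycd (adjusted permutation p = 0.0928).

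**Figure D5:**
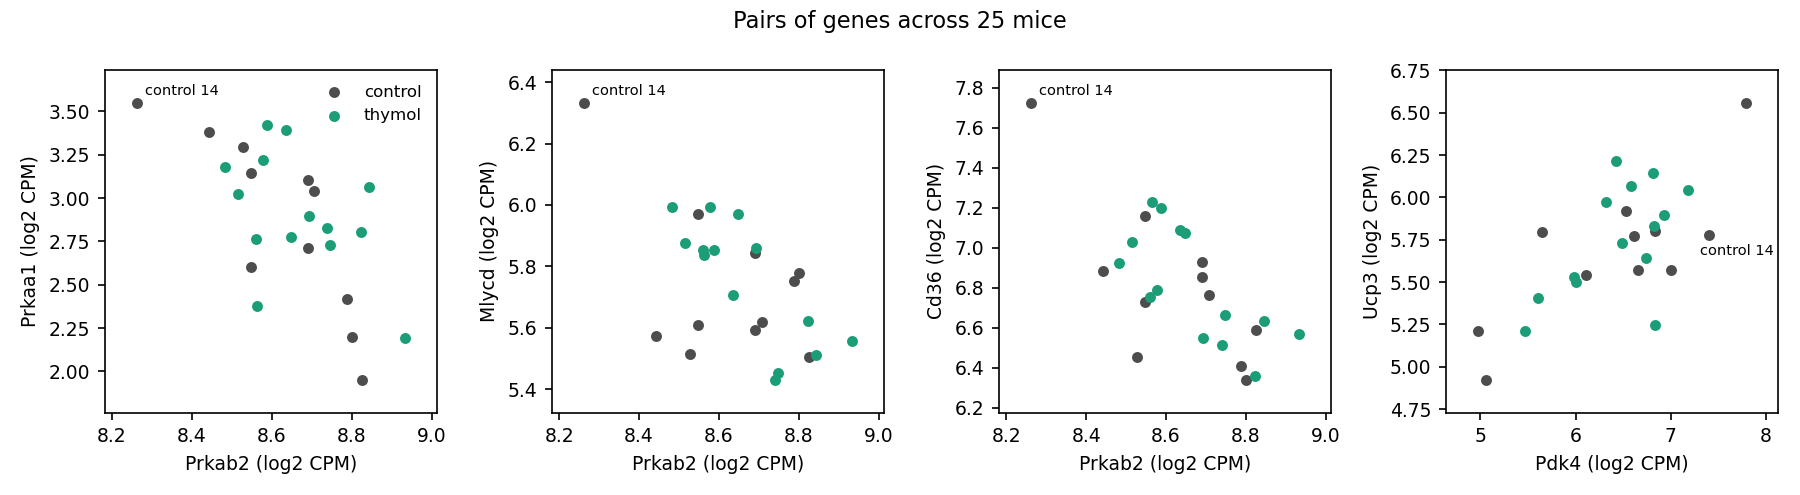
Log2 CPM of each mouse for Prkab2 against Prkaa1, Mlycd and Cd36, and for Pdk4 against Ucp3, in control (gray) and thymol mice (green). Control 14, named in each panel, lies at the edge of the 3 panels with Prkab2, and the 2 groups intermix in all 4.

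Against the 81 pathway genes, in a comparison chosen after the first results were seen, 6 of 729 pairs passed adjustment by Pearson r and 116 had an unadjusted permutation p under 0.05. By rank 0 pairs passed and 100 had an unadjusted permutation p under 0.05. The share of all gene pairs under that cut was not computed, so neither count can be read as a trait of these genes. Ucp3 was higher in mice with a higher level of Pdk4, the kinase that shuts pyruvate out of oxidation in fasting (r = 0.70, permutation p = 9e-05, adjusted p = 0.0219; rho = 0.55, adjusted p = 0.128), with r = 0.80 within control, 0.57 within thymol mice and 0.57 without control 1 and control 32. Pdk4 itself ran from 4.98 through 6.61 to 7.79 log2 CPM in control and from 5.46 through 6.54 to 7.18 in thymol mice. The call for Ucp3 with Pdk4 was lost without control 1 (r = 0.64, adjusted permutation p = 0.0705), and without control 18, control 19 and thymol 20 together (r = 0.64, adjusted permutation p = 0.0816). Acacb was opposed to Ak3, a mitochondrial adenylate kinase (r = -0.74, permutation p = 2e-05, adjusted p = 0.0146; rho = -0.70, adjusted p = 0.062), with r = -0.86 within control, -0.69 within thymol mice and -0.63 without thymol 22 and control 18, and this call remained when any single mouse was left out; without control 18, control 19 and thymol 20 together r was -0.62 (adjusted permutation p = 0.0816).

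The other 4 pairs past adjustment involved Prkab2, Mlycd and Prkag3. Cd36, a fatty acid transporter, had r = -0.72 with Prkab2 (permutation p = 5e-05, adjusted p = 0.0182; rho = -0.62, adjusted p = 0.117), -0.76 within control and -0.70 within thymol mice. With Mlycd it had r = 0.69 (permutation p = 0.0002, adjusted p = 0.0292; rho = 0.56, adjusted p = 0.117), 0.77 within control and 0.58 within thymol mice. Lpl, which frees fatty acids from lipoproteins, had r = -0.66 with Prkab2 (permutation p = 0.00029, adjusted p = 0.0352; rho = -0.64, adjusted p = 0.117), -0.77 within control and -0.64 within thymol mice, while its r with Mlycd was 0.64 and did not pass (adjusted permutation p = 0.0583). Prkag3 was opposed to Gys1, the muscle glycogen synthase gene (r = -0.69, permutation p = 0.00019, adjusted p = 0.0292; rho = -0.69, adjusted p = 0.062), with -0.83 within control and -0.68 within thymol mice. Without the 2 mice farthest from the median of the partner gene, r was -0.59, 0.52, -0.63 and -0.66 for these 4 pairs. All 4 of these calls were lost without control 14, where r was -0.60, 0.53, -0.59 and -0.63 in the same order. That of Mlycd with Cd36 was also lost without control 32, thymol 24 or thymol 34 (r 0.67 to 0.68), and that of Prkab2 with Lpl without control 15, 23 or 31 or thymol 3, 9, 24, 30 or 34 (r -0.66 to -0.64). With the fast-fiber and endothelial means removed, all 4 were lost as well, with adjusted permutation p between 0.0765 and 0.254. Over 7 settings other than leaving out a single mouse, the call of Prkab2 with Lpl was lost in 5 and those of the other pairs in 3 each. Of the 81 genes, the number with r of at least 0.5 in size was 11 for Mlycd, 9 for Prkab2 and 8 for Prkag3, which were all negative, and between 1 and 6 for the others. Among all genes the share past that size was 1.1% for Prkaa1, 3.22% for Prkaa2, 3.72% for Prkab2, 2.16% for Prkag1, 4.45% for Prkag3, 1.44% for Stk11, 3.95% for Acacb, 3.34% for Mlycd and 1.81% for Ucp3.

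Over the whole table, with group means removed, the genes most like each member across the 25 mice are given as a description. For Prkag3 the closest was Ttll7 (r = 0.87), followed by Cmya5, a sarcomeric protein gene that was also among the closest to Prkaa2 (0.77 and 0.74). Genes close to Prkab2 were Dicer1 (0.80) and Rabgef1 (0.77), and Acacb ran closest to Cnst (0.81), Ppp1r15b (0.79) and Garre1 (0.77). Mlycd ran closest to Acsl1, which activates long-chain fatty acids (0.73), Myl12a (0.72) and the peroxisomal catalase gene Cat (0.72). Ucp3 ran closest to Morf4l2 (0.75), Pdk4 (0.71) and Marchf8 (0.67), and Prkaa1 to the caveolar gene Cav1 (0.76), Slx9 (0.66) and Ivd (0.65). For Prkaa2 the first 2 were Zfp651 (0.75) and Eif4g3 (0.74), and for Prkag3 the third was Ddi2 (0.77). The closest to Prkag1 were Tmem25 (0.68), Htra2 (0.67) and Lrpprc (0.67), and to Stk11 Sh2d3c (0.71), Bbx (0.70) and Lrrc47 (0.69). Morf4l2, Tmem25 and Sh2d3c had low mean levels of 2.34, 2.40 and 2.17 log2 CPM, below that of Prkaa1. All these r are the highest over the whole table, and no chance level was computed for them.

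In the GENCODE M21 annotation (GRCm38), 6 of the 9 genes overlap a gene on the opposite strand, and reads of the overlap are uncertain where the counting strand is not known. These are Prkaa1 with Gm15938, Prkab2 with Gm17651, Prkag1 with B130046B21Rik, Stk11 with Cbarp, Acacb with Gm13784 and Ucp3 with Gm10603. None overlaps a gene on its own strand. Of 31-base words in the transcript ends, 0% were shared with another gene for 8 members and 0.432% for Prkag3.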

How the data were processed

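RNA of gastrocnemius from 25 mice was sequenced with the QuantSeq 3′ FWD kit, and the processing notes of the submitters name STAR 2.5.3, HTSeq 0.6.1 and GRCm38. The authors filtered genes on read counts, scaled libraries by TMM and deposited log2 CPM values, whose lowest steps match a prior of 2 reads per library of mean size. Whole reads were recovered from the steps of these values (100% whole within 0.05 of a read). Mice were grouped by treatment and named by the last number of their label. Each label was taken as a separate mouse.

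The members, lists and tests were chosen with earlier results of these data known. Thymol was compared with control by limma 3.58.1 (R 4.3.3) with a mean-variance trend on the deposited log2 values, two-sided, with Benjamini-Hochberg adjustment over 8829 genes and a threshold of 0.05. Ratios and correlations were tested with 100000 permutations (two-sided, numpy 2.4.6), adjusted over 3 ratios, 36 member pairs, 45 marker pairs and 729 pathway pairs. One ratio and the pairs of Prkab1 were left out, since that gene was not analysed here. Besides the members, the text names the 3 pathway genes of each direction that had the lowest p, the 3 genes most like each member, and the pathway partners past the threshold, the last chosen after their values were seen. A gene that this rule would name is not reported here. Tests were checked on simulated data. Promoters are from RefSeq (all 9 genes matched) and gene positions from GENCODE M21. Alternatives were quantile and median scaling, voom on recovered reads, the 75% of genes with the highest mean, no trend, sample weights, covariates, a replicate block and leaving out mice.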

Additional observations from a re-analysis of the deposited data

How the results depend on the processing

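No gene, member or pathway gene was called for thymol in any of the alternatives run. Leaving out each mouse in turn moved the log2 fold change of Prkaa1 between -0.0387 and 0.121 and Prkag3 between -0.00833 and 0.0827. It moved Mlycd between -0.00723 and 0.0753, Ucp3 between -0.00721 and 0.156 and the Acacb over Mlycd difference between -0.0116 and 0.0721. All 9 members had 95% limits that include 0, so the sign of none is fixed by these data. The labels do not say what their first number means. Deviations of same-numbered mice of different groups had a mean r of -0.0022 (9 pairs), against 0.0002 for the other 145. So few pairs cannot show whether that number pairs the mice. With that number as a replicate block, the log2 fold change of Prkab2 was -0.00949 and that of Ucp3 -0.0251 (limma, adjusted p = 0.9997 for both). The block raised that of Prkaa1 to 0.19 and that of Stk11 to 0.11, and neither was called. The ratio differences under the block were -0.22, 0.18 and 0.07. Member pairs past the threshold numbered 1 with median centring and 0 to 3 when a mouse was left out, 0 without control 14. With the fast-fiber and endothelial means removed, by permutations that did not allow for the removal, there was 1. It was neither of the pairs called in the main test. Pathway pairs numbered 0 by rank, 2 with those means removed and 3 to 13 when a mouse was left out, 3 without control 14, 13 without control 19, 11 without thymol 16 and 10 without thymol 28 or control 18. Marker pairs numbered 0 to 3 when a mouse was left out (3 without thymol 20 or thymol 3) and 4 without control 18, control 19 and thymol 20, which were Prkaa1 with endothelial, Prkab2 with fast-fiber and Acacb and Mlycd with slow-fiber markers; that setting, the removal of fast-fiber and endothelial means and those of the pathway and marker pairs were chosen after the data were seen. Pathway genes with an unadjusted p under 0.05 numbered 1 to 5 over the alternatives other than leaving out a single mouse. The causes were not tested. Depth limits Prkaa1, with 19 reads in its lowest mouse and counting error at 21.5% of the variance. For Prkag1 that share was 22.8% at 349 to 656 reads, beside a small spread between mice of a group (SD 0.135 log2).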
